A study of Homo sapiens with 6 samples.

Results

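The genes described here are 48 antioxidant enzymes and regulators of the glutathione, thioredoxin and peroxidase systems. They were chosen by gene symbol, and all 48 were found among the 62754 genes of the deposited table. The study sequenced polyadenylated RNA of HPNE-hTERT, a non-malignant human pancreatic ductal line immortalized with telomerase. In the FOLFIRINOX group, 3 libraries came from cells treated for 4 days with the chemotherapy mix of oxaliplatin at 5 µM, 5-fluorouracil at 10 µM and SN-38, the active form of irinotecan, at 25 nM, given to make them senescent per the labels. In the vehicle group, 3 libraries came from cells given DMSO, also at day 4. Both groups are the same immortalized line, grown in low glucose medium with serum and epidermal growth factor. The series is titled for the sensitivity of senescent cancer cells to ferroptosis, death by membrane lipid peroxidation, whereas these cells are not malignant.

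Cells remove superoxide with superoxide dismutases, which form hydrogen peroxide, and remove peroxides with catalase, glutathione peroxidases and peroxiredoxins. Glutathione peroxidases draw electrons from the tripeptide glutathione, which glutathione reductase regenerates, and most peroxiredoxins draw them from thioredoxin, which thioredoxin reductase regenerates. Both reductases spend NADPH. Glutathione transferases couple glutathione to electrophiles, among them drugs and products of lipid peroxidation. The transcription factor NRF2 (NFE2L2), held in check by KEAP1 and opposed by BACH1, drives many of these genes.

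Reads assigned to genes totalled 83981154 to 91992824 in the FOLFIRINOX libraries and 86435436 to 97762802 in vehicle libraries. The keratin genes KRT8 and KRT18 of ductal epithelium were read in every library, whereas EPCAM had 0 reads in all but FOLFIRINOX P14 and KRT19 stayed between 2.05 and 17.7 normalized reads. All 6 mesenchymal markers were read in every library, and 5 of them were called lower in FOLFIRINOX. Their summed level was 2382614 to 2879884 normalized reads in FOLFIRINOX, against 3300509 to 4904383 in vehicle. The 9 ductal markers summed to 8962 to 9959 in FOLFIRINOX and 11979 to 14439.7 in vehicle, with SOX9 and KRT18 called lower. Among markers of other cells, the 4 acinar markers summed to 0 to 8.23 in FOLFIRINOX and 0 in vehicle. The 4 endocrine markers summed to 0 to 1.87 in either group. The 3 endothelial markers summed to 14.9 to 19.5 in FOLFIRINOX and 18.4 to 38.2 in vehicle. The 3 immune markers summed to 12.3 to 53.2 in FOLFIRINOX and 6.37 to 13.1 in vehicle. Mitochondrial ribosomal RNA took 1.18% to 2.74% of reads in FOLFIRINOX and 0.552% to 0.864% in vehicle. The part of these shifts in the results below was not tested. In bulk RNA, fewer cells of a type and less RNA per cell cannot be told apart.

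A few antioxidant genes moved with the drugs, in opposite directions, and most were not called. TXNIP, GPX3, GPX1 and SOD2 rose, while GSTM4, MSRA, MSRB1, GPX7 and TXNRD1 fell. These were 4 higher and 5 lower among the 46 members tested, 19.6% in all. Over all 17951 genes tested 11.4% were called higher and 12.2% lower, 23.6% in all, so the members' share was near the background. Scaling to a common total turned the balance of all genes to 61.3% of calls higher, against 48.3% as deposited, and moved their median difference to 0.13. The test was limma on log2(normalized reads + 1) with Benjamini-Hochberg adjusted p under 0.05 over all genes, and every difference is FOLFIRINOX minus vehicle on that log2 scale, with its standard error (SE) and n = 3 libraries per group. The median difference was −0.10 over the members and 0.02 over all genes, and the median absolute difference was 0.25 and 0.41. An absolute difference of 1 or more was reached by TXNIP, GPX3, GPX1 and GSTM4 only. FOLFIRINOX and vehicle values did not overlap for 14 of the 46 members (30.4%), against 39.5% of all genes. Reads per library are given below in the order P14, P15, P19, the numbers in the column names.

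**Figure D1:**
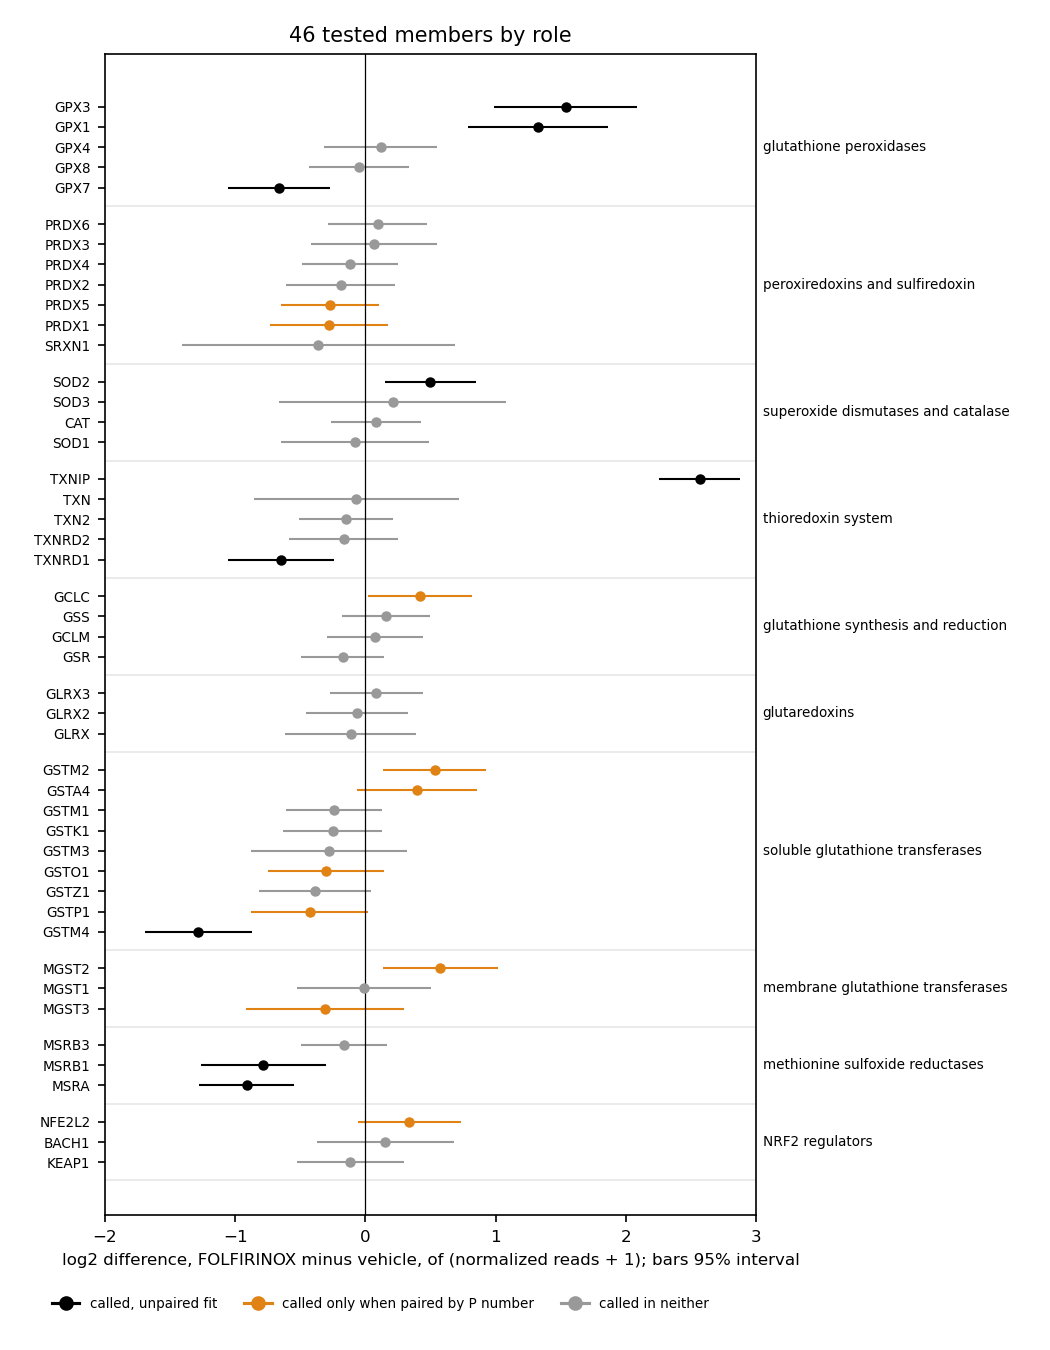
Log2 difference (FOLFIRINOX minus vehicle) of the 46 tested members, grouped by role, with 95% intervals from the unpaired limma fit. Black points were called in that fit (4 higher, 5 lower), orange points when libraries were paired by P number but not unpaired (5 higher, 5 lower), and grey points in neither of these fits (27 members).

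Libraries with the same P number deviated together, and a fit with P number as a replicate block called more genes. Its adjusted p is given below as the paired adjusted p where it changes a call. The paired fit called 9 members higher and 10 lower (41.3% of 46), against 22.3% and 21.8% of all genes (44.1%). Again the share was near the background. The 10 members called in the paired but not in the unpaired fit were GCLC, GSTM2, GSTA4, MGST2 and NFE2L2, which were higher, and PRDX1, PRDX5, GSTP1, GSTO1 and MGST3, which were lower. Of these, GSTM2 and MGST2 were also called under some unpaired alternatives. The 9 members called here were also those with an adjusted p under 0.05 in the authors' deposited table (19.6% of 46, against 19.4% of the 23247 genes with an adjusted p there). GPX2, the peroxidase of the gut lining, had 0 reads in all 6 libraries, which allows up to 3 reads in each (counting error only). GGT1, which breaks down extracellular glutathione, had 0, 1.97 and 5.60 normalized reads in FOLFIRINOX and 2.05, 0 and 0 in vehicle. Neither was tested. The 46 tested members had a value of 10 or more in every library, so none passed the filter through 1 group alone. Exons of PRDX1, PRDX2, TXNRD2, GCLC, GLRX2, GSTM1, GSTM3, GSTZ1, MGST2, MSRB3, NFE2L2 and BACH1 overlap genes of the opposite strand in GENCODE 29. Their reads cannot be told apart if counting ignored strand, which the sources used here do not state.

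In the thioredoxin system the inhibitor rose and the cytosolic reductase fell, while thioredoxin itself was not called. TXNIP (chr1:145992435-145996600, reverse strand, GRCh38) encodes an arrestin-like protein that binds reduced thioredoxin and inhibits it, and also lowers glucose uptake. It had 105913, 106655 and 109395 normalized reads in the FOLFIRINOX libraries, against 19004, 18621 and 16786 in the vehicle libraries. The groups lay far apart and libraries within a group were close. TXNIP rose 5.93-fold (log2 difference 2.57 ± 0.14, limma adjusted p = 3.4e-07), the largest change among the members, and it was called under every alternative run.

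Because TXNIP moved most, the stretch of its promoter that holds its known carbohydrate response element is shown (RefSeq, GRCh38.p14, chr1:145996611-145996707, reverse strand). The capitals mark the motif searched, chosen after the value of TXNIP was known: the letters CACGNG, then any 5 bases, then CACGNG again, on either strand. It lies 88 to 72 bases before the start.
TXNIP: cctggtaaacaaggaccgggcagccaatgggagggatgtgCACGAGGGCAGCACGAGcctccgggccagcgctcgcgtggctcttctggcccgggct
Of 35116 promoter windows, each 250 bases before to 50 after a start, 20 hold that motif (0.0570%), and among 59 windows of 39 members only the TXNIP window holds it. This describes the letters and not the binding of a factor.

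TXNRD1 (chr12:104215779-104350305, forward strand), the selenocysteine-containing reductase of cytosolic thioredoxin, had 30029, 22293 and 24934 normalized reads in FOLFIRINOX and 34669, 37134 and 49965 in vehicle. Every FOLFIRINOX library was below every vehicle library. TXNRD1 fell 1.57-fold (−0.65 ± 0.18, limma adjusted p = 0.0265), and it was not called without FOLFIRINOX P15, FOLFIRINOX P19 or vehicle P19 (adjusted p = 0.103, 0.0781 and 0.0691), with common-total scaling (0.0502) or without the variance trend (0.0797). TXN, the cytosolic thioredoxin, had 35825, 14959 and 16720.3 normalized reads in FOLFIRINOX and 35319, 14509.5 and 20180.4 in vehicle. Its P14 library was the highest of each group, and its difference was −0.07 ± 0.36 (95% interval −0.86 to 0.72, adjusted p = 0.909). The mitochondrial thioredoxin TXN2 averaged 3927 ± 241 in FOLFIRINOX and 4386 ± 659 in vehicle (SD, n = 3 each; −0.15 ± 0.16, limma adjusted p = 0.543). Its reductase TXNRD2 averaged 1072 ± 173 in FOLFIRINOX and 1202 ± 176 in vehicle (−0.17 ± 0.19, adjusted p = 0.565).

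**Figure D2:**
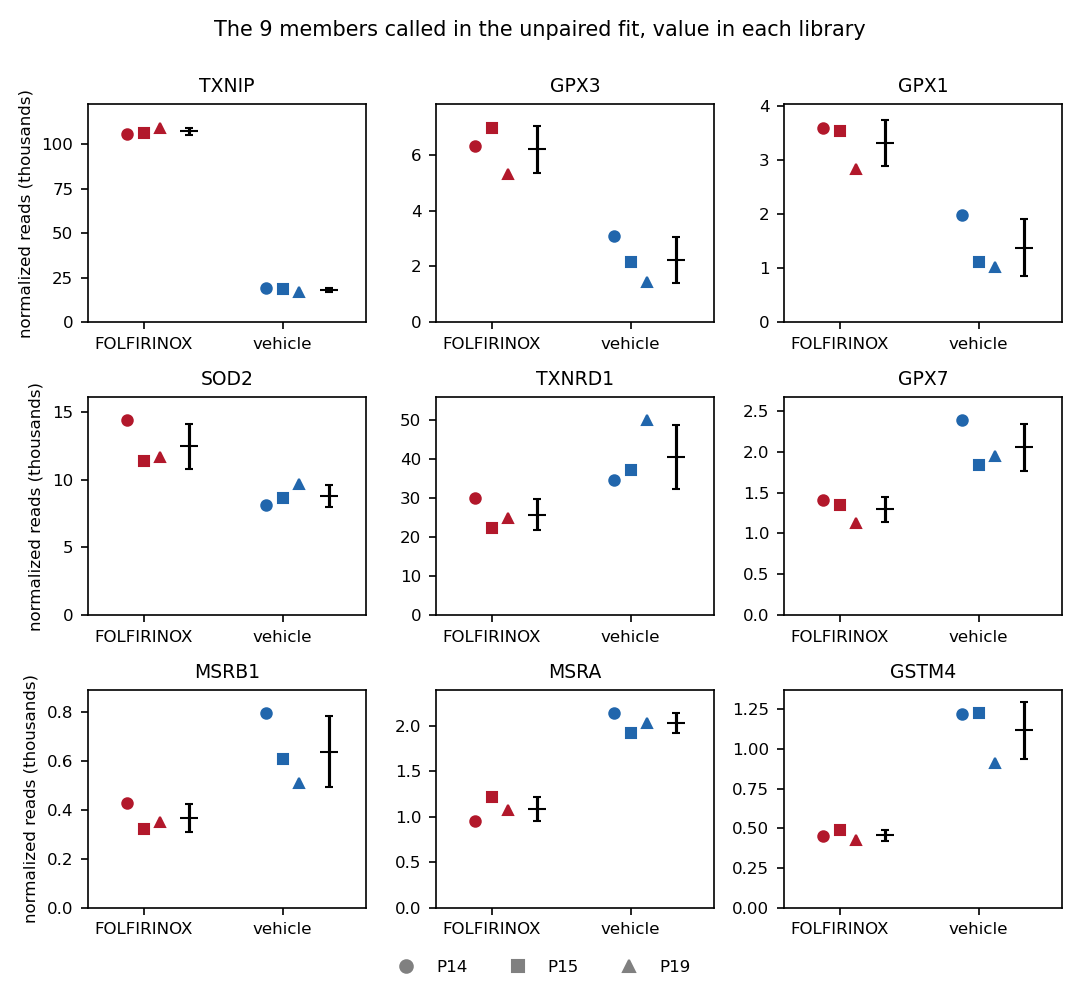
Normalized reads (in kilo-reads, linear axes from 0) in each library for the 9 members called in the unpaired fit, with FOLFIRINOX left of vehicle, symbols by P number, and bars of mean ± SD (n = 3). The groups do not overlap in any panel, and TXNIP averages 107321 ± 1834 reads in FOLFIRINOX against 18137 ± 1186 in vehicle.

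Among glutathione peroxidases, the cytosolic GPX1 and the secreted GPX3 rose, the endoplasmic reticulum enzyme GPX7 fell, and GPX4 and GPX8 were not called. GPX3 (chr5:151020438-151028993, forward strand) is the peroxidase of plasma. It had 6319, 6988 and 5306 normalized reads in FOLFIRINOX libraries, against 3089.8, 2152 and 1441 in vehicle. The lowest FOLFIRINOX value was above the highest vehicle value. GPX3 rose 2.90-fold (1.54 ± 0.25, limma adjusted p = 0.0014). GPX1 (chr3:49357171-49358600, reverse strand), the abundant cytosolic selenoenzyme that reduces hydrogen peroxide, had 3597, 3527 and 2829 in FOLFIRINOX and 1981, 1119 and 1024 in vehicle. It rose 2.51-fold (1.33 ± 0.24, adjusted p = 0.0029), again without overlap. Calls of GPX1 and GPX3 held under every alternative run.

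GPX4, which reduces phospholipid hydroperoxides within membranes and restrains ferroptosis, had 13857, 13283 and 11384 normalized reads in FOLFIRINOX and 15867, 10669.6 and 9718 in vehicle. The groups overlapped, and P14 was the highest library of each. The 95% interval of its difference was −0.32 to 0.55 (limma adjusted p = 0.709). GPX7 (chr1:52602372-52609051, forward strand) and GPX8 are reticulum enzymes that carry cysteine in place of selenocysteine. GPX7 had 1409, 1351 and 1122 in FOLFIRINOX and 2383, 1831 and 1945 in vehicle and fell 1.58-fold (−0.66 ± 0.18, adjusted p = 0.0201). It was not called without vehicle P14 (adjusted p = 0.0727), both P14 libraries (0.0784) or FOLFIRINOX P19 (0.104). GPX8 averaged 23348 ± 3764 in FOLFIRINOX and 24110.2 ± 3292 in vehicle (SD, n = 3 each), a difference of −0.05 ± 0.17 (limma adjusted p = 0.863).

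No peroxiredoxin was called in the unpaired fit. These are abundant thiol peroxidases, and PRDX6, a form that works with glutathione, had 73484, 59167 and 53627 normalized reads in FOLFIRINOX and 66599, 56080.3 and 51150.1 in vehicle. Its value was higher in FOLFIRINOX within each P number, by 0.10 on average (limma adjusted p = 0.725). PRDX1, the main cytosolic form, had 40041, 26087 and 25624 in FOLFIRINOX and 44139, 32056 and 33998 in vehicle. It was lower within each P number (−0.28 ± 0.21, adjusted p = 0.353, paired adjusted p = 0.0292). PRDX5, found in mitochondria, peroxisomes and cytosol, had 10885, 10399.5 and 9132 in FOLFIRINOX and 15029, 11180.0 and 10813 in vehicle, and was likewise lower in each pair (−0.27 ± 0.17, adjusted p = 0.283, paired adjusted p = 0.0476). PRDX2 of the cytosol averaged 7945 ± 947 in FOLFIRINOX and 9174 ± 2104 in vehicle (−0.19 ± 0.19, limma adjusted p = 0.507). PRDX3 of mitochondria averaged 18336 ± 5110.1 in FOLFIRINOX and 17346 ± 3534 in vehicle (0.07 ± 0.22, adjusted p = 0.854). PRDX4 of the reticulum averaged 13029.8 ± 1479 in FOLFIRINOX and 14222 ± 2320.0 in vehicle (−0.12 ± 0.17, adjusted p = 0.644). SRXN1, the sulfiredoxin that repairs overoxidized peroxiredoxins, had 41.1, 23.6 and 12.1 normalized reads in FOLFIRINOX and 33.8, 22.3 and 34.6 in vehicle. It was the lowest of the 45 tested members with a length per kb of exon, and its exons overlap another gene of the same strand in GENCODE 29, so its count is uncertain.

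Of the dismutases and catalase, SOD2 was called. SOD2, the manganese enzyme of the mitochondrial matrix, had 14381, 11360.4 and 11693 normalized reads in FOLFIRINOX and 8094, 8662 and 9667 in vehicle, with no overlap. It rose 1.41-fold (0.50 ± 0.16, limma adjusted p = 0.0433). Its call was lost without FOLFIRINOX P14 (adjusted p = 0.135), P15 (0.0685) or P19 (0.0992), without vehicle P14 (0.118) or P15 (0.118), without both P14 libraries (0.210), with TMM scaling (0.0606), with no filter (0.0680) and without the variance trend (0.0935), while its paired adjusted p was 8.0e-04. SOD1, the copper-zinc enzyme of the cytosol, had 22173, 11412 and 11898 in FOLFIRINOX and 19288, 12567 and 14613 in vehicle, and P14 was the highest library of each group. Its difference was −0.08 ± 0.26 (95% interval −0.65 to 0.49, adjusted p = 0.854). CAT, the peroxisomal catalase, had 5689, 4823 and 4431 in FOLFIRINOX and 4597, 4684 and 4775 in vehicle, with overlap (0.08 ± 0.16, adjusted p = 0.746). The extracellular SOD3 was low and spread widely, with 152, 216 and 123 in FOLFIRINOX and 234, 157 and 71.0 in vehicle (95% interval −0.66 to 1.08).

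Genes that make and recycle glutathione were not called in the unpaired fit. GCLC, the catalytic subunit of the rate-limiting ligase, had 3265, 3125 and 4037 normalized reads in FOLFIRINOX and 2216, 2539 and 3058 in vehicle. The groups did not overlap, by a narrow margin between FOLFIRINOX P15 and vehicle P19. Its difference was 0.42 ± 0.18 (limma adjusted p = 0.118, paired adjusted p = 0.0057). GCLM, the modifier subunit of the same ligase, had 7263, 6841 and 8466 in FOLFIRINOX and 6809.6, 6318 and 8399 in vehicle. GCLM was higher in FOLFIRINOX within each pair, by small amounts (0.07 ± 0.17, adjusted p = 0.785). GSR, glutathione reductase, had 6184, 6248 and 5717 in FOLFIRINOX and 6391, 7136 and 6971 in vehicle. All FOLFIRINOX values were below all vehicle values, but the difference was small (−0.18 ± 0.14, adjusted p = 0.416). GSS, the synthetase of the last step, averaged 5313 ± 560.4 in FOLFIRINOX and 4754 ± 296 in vehicle (0.16 ± 0.15, adjusted p = 0.499).

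None of the 3 glutaredoxins, a family in which some reduce protein-glutathione mixed disulfides, was called in either fit. Cytosolic GLRX averaged 7168 ± 1739 normalized reads in FOLFIRINOX and 7823 ± 2256 in vehicle (−0.11 ± 0.23, limma adjusted p = 0.755), with P14 the highest library of each group. GLRX2 of mitochondria averaged 2738 ± 470.1 in FOLFIRINOX and 2842 ± 249 in vehicle (−0.07 ± 0.18, adjusted p = 0.822). GLRX3, an iron-sulfur cluster carrier, averaged 15223 ± 2439.9 in FOLFIRINOX and 14274 ± 1107 in vehicle (0.08 ± 0.16, adjusted p = 0.747).

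Of 9 soluble glutathione transferases, GSTM4 fell and none was called higher, while the paired fit called 2 higher and 3 lower. GSTM4 (chr1:109656081-109674836, forward strand), of the mu class, had 449.5, 492 and 427 normalized reads in FOLFIRINOX and 1221, 1224 and 911 in vehicle. It fell 2.43-fold without overlap (−1.28 ± 0.19, limma adjusted p = 6.5e-04) and was called under every alternative run. GSTM2, its neighbour on the same strand, had 2227, 2236 and 1952 in FOLFIRINOX and 1728, 1535 and 1208 in vehicle. Its FOLFIRINOX values were all above its vehicle values (0.53 ± 0.18, adjusted p = 0.0535, paired adjusted p = 0.0012, and unpaired 0.0442 without vehicle P14, 0.0250 with common-total scaling and 0.0477 with a filter at 50). GSTM1 averaged 2499 ± 255 in FOLFIRINOX and 2960.2 ± 392 in vehicle (−0.24 ± 0.17, adjusted p = 0.332). GSTM3 averaged 1146 ± 391 in FOLFIRINOX and 1377 ± 408 in vehicle (−0.28 ± 0.27, adjusted p = 0.491). The mu genes are related copies of similar sequence. In GENCODE 29 exons of GSTM2 overlap those of GSTM1 and GSTM4 on the same strand, so counts of the 3 genes are uncertain.

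GSTP1, the pi class enzyme abundant in epithelial tumours, had 9151, 8402 and 6742 normalized reads in FOLFIRINOX and 14235, 10226 and 8669 in vehicle. It was lower in FOLFIRINOX within each pair though the groups overlapped (−0.43 ± 0.20, limma adjusted p = 0.158, paired adjusted p = 0.0025). GSTO1, the omega class enzyme that also reduces dehydroascorbate, had 17271, 13800.5 and 13102 in FOLFIRINOX and 24108, 15372 and 15723 in vehicle (−0.30 ± 0.20, adjusted p = 0.313, paired adjusted p = 0.0251). GSTA4, which conjugates the lipid peroxidation product 4-hydroxynonenal, went the other way. It had 4988, 3030.2 and 3313 in FOLFIRINOX and 3269, 2452 and 2744 in vehicle (0.40 ± 0.21, adjusted p = 0.202, paired adjusted p = 0.0093). GSTK1, of mitochondria and peroxisomes, averaged 6041 ± 684 in FOLFIRINOX and 7233 ± 1266 in vehicle (−0.25 ± 0.17, adjusted p = 0.326). GSTZ1, an enzyme of tyrosine breakdown, averaged 327 ± 15.3 in FOLFIRINOX and 431 ± 66.8 in vehicle without overlap (−0.39 ± 0.19, adjusted p = 0.181).

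None of the 3 membrane-bound transferases was called in the unpaired fit, while the paired fit called MGST2 higher and MGST3 lower. MGST2, which can make leukotriene C4, had 2612, 2134 and 1981 normalized reads in FOLFIRINOX and 1933, 1309 and 1318 in vehicle. The groups did not overlap (0.58 ± 0.20, limma adjusted p = 0.0605, paired adjusted p = 5.1e-04, and unpaired 0.0238 without vehicle P14 and 0.0242 with common-total scaling). MGST3 had 10169.9, 6154 and 5730.3 in FOLFIRINOX and 13134, 7031 and 7408 in vehicle, lower in each pair and highest in P14 of each group (−0.31 ± 0.27, adjusted p = 0.448, paired adjusted p = 0.0239). MGST1, which also has glutathione peroxidase activity, had 65316, 35303 and 37276 in FOLFIRINOX and 52131, 38296 and 43981 in vehicle, a difference of −0.01 ± 0.23 (95% interval −0.52 to 0.50).

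The regulators were not called in the unpaired fit. NFE2L2 had 13396, 10586 and 13979 normalized reads in FOLFIRINOX and 9553, 8571 and 11980.0 in vehicle. It was higher in FOLFIRINOX within each pair (0.34 ± 0.18, limma adjusted p = 0.201, paired adjusted p = 0.0128). KEAP1, the adaptor that targets NRF2 for degradation, had 2636, 3541 and 2944 in FOLFIRINOX and 3861, 3367 and 2695 in vehicle (−0.12 ± 0.19, adjusted p = 0.691). BACH1, a repressor that competes for NRF2 sites, had 3771, 4168 and 6211 in FOLFIRINOX and 3593, 3492 and 5645 in vehicle, with P19 highest in each group (0.15 ± 0.24, adjusted p = 0.679).

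NRF2 binds the antioxidant response element, whose core was searched as TGACNNNGC on either strand. In RefSeq promoters of GRCh38.p14 it occurred in 10 of the 39 members with a window (25.6%), against 16.1% of 27305 genes with one. A gene can have several windows. By window, the core was in 11 of the members' 59, against 4687 of all 35116 (13.3%). The members with the core were GCLM, GSTM1, GSTA4, GSTO1, GSTP1, MGST1, TXNRD1, GPX2, KEAP1 and GGT1. Of the 8 tested members with the core, 6 had a difference below 0 and 2 above 0, and TXNRD1 was the 1 called in the unpaired fit. The median over all 46 tested members was also below 0 (−0.10). Signs of MGST1 and KEAP1 (below 0) and of GCLM (above 0) turned under some alternatives. The sites of 5 are shown, chosen with their values known, to cover the calls of either direction: TXNRD1 fell in the unpaired fit, GSTP1 and GSTO1 were called lower and GSTA4 higher when paired, and GCLM was called in neither. Capitals mark the core, with up to 20 bases on each side and none past the start. The stretches are chr12:104286910-104286958, forward strand (TXNRD1, at one of its starts), chr11:67583726-67583774, forward strand (GSTP1), chr10:104254646-104254694, forward strand (GSTO1, the farther of its sites), chr6:52995285-52995313, reverse strand (GSTA4) and chr1:93909436-93909484, reverse strand (GCLM).
TXNRD1: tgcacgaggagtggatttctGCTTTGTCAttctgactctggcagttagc
GSTP1: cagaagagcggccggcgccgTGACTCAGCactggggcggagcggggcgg
GSTO1: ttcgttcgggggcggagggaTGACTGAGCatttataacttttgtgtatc
GSTA4: tctcacccagccgggaccgcTGACCTGGC
GCLM: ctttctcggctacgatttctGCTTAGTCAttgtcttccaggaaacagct
A match is not a site of binding, and absence of a match says nothing of NRF2.

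Methionine sulfoxide reductases, which repair oxidized methionine in proteins, fell for 2 of the 3 members. MSRA, which reduces the S form, had 955, 1219 and 1069 normalized reads in FOLFIRINOX and 2135, 1916 and 2025 in vehicle. The groups were well apart, and MSRA fell 1.88-fold (−0.91 ± 0.17, limma adjusted p = 0.0027), a call held under every alternative run. MSRB1 (chr16:1938210-1943326, reverse strand), the selenoprotein that reduces the R form in cytosol and nucleus, had 430.0, 322 and 351 in FOLFIRINOX and 796, 610.1 and 511 in vehicle. It fell 1.72-fold (−0.78 ± 0.22, adjusted p = 0.0238), and the call was lost without the P14 pair (adjusted p = 0.0675), vehicle P15 (0.0552), vehicle P14 (0.0895), FOLFIRINOX P19 (0.0724) or FOLFIRINOX P15 (0.0819), or without the variance trend (0.0536). MSRB3, of the reticulum and mitochondria, averaged 14951 ± 1089.7 in FOLFIRINOX and 16781 ± 1512 in vehicle (−0.17 ± 0.15, adjusted p = 0.456).

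Members were also grouped by features that their choice did not use, beside 11.4% higher and 12.2% lower over all genes tested. Selenoproteins were called on both sides, and each other group held 1 call in the unpaired fit, too few to speak of sides. Of 6 tested members that are selenoproteins, GPX1 and GPX3 rose, TXNRD1 and MSRB1 fell, and GPX4 and TXNRD2 were not called (median difference −0.03). Of 7 members listed as mitochondrial (PRDX3, PRDX5, SOD2, TXN2, TXNRD2, GLRX2 and GSTK1) SOD2 rose and none was called lower, though PRDX5 was in the paired fit (median −0.15). Of 3 members listed for the reticulum GPX7 fell, and GPX8 and PRDX4 were not called. MSRB3, found in both places, was put in neither list and was not called. MSRA, which was called lower, was also in neither list, so the absence of a lower mitochondrial call depends on that list. Of the 2 secreted members GPX3 rose and SOD3 was not called.

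Per length, the mean level of TXNIP in FOLFIRINOX was above those of the peroxiredoxins and thioredoxin, though not in the P14 library. In normalized reads per kb of exon, TXNIP was at 29218, 29422 and 30178 in the FOLFIRINOX libraries and ranked 1 among 45 tested members with a length, against 5242, 5137 and 4631 and rank 14 in vehicle. TXN was at 31370.4, 13099 and 14641 per kb in FOLFIRINOX and 30927, 12705 and 17671 in vehicle. PRDX6 was at 31045, 24997 and 22656 per kb in FOLFIRINOX and 28136, 23693 and 21609.7 in vehicle. In FOLFIRINOX P14 both were above TXNIP, and in P15 and P19 TXNIP was above both. The mean ratio of TXNIP to TXN per kb was 1.5 in FOLFIRINOX and 0.245 in vehicle. TXNIP made up 15.1% of the summed per-kb level of these members in FOLFIRINOX and 2.76% in vehicle. In vehicle the first 3 were PRDX6, PRDX1 and TXN, with means of 24479.5, 24133 and 20435, and they came next after TXNIP in FOLFIRINOX at 26233, 20095 and 19704. Their spreads between libraries overlap, so their order is not firm. Within the glutathione peroxidases, GPX4 (6360.2 per kb in FOLFIRINOX, 5986 in vehicle) and GPX8 (6036 and 6233) stayed above GPX1 (2320.0 and 962) and GPX3 (1962 and 704), though the last 2 rose. Lengths are all annotated exons joined (GENCODE 29), which can exceed the transcript used by unlike amounts. Ranks and shares between genes, that of TXNIP included, depend on these lengths. SOD2 had no length because its identifier is not in that release.

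**Figure D3:**
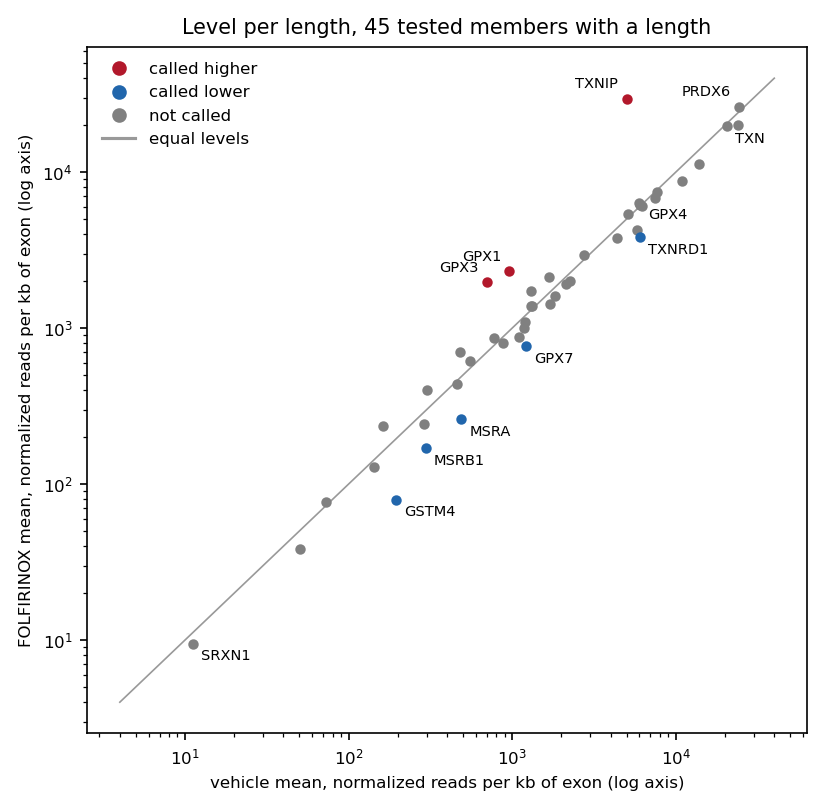
Mean level per kb of exon in FOLFIRINOX (vertical, log axis) against vehicle (horizontal, log axis) for 45 tested members, with the line of equal levels. TXNIP stands above the line at 29606 against 5003 per kb, and most other members lie close to it from SRXN1 at 9.50 against 11.2 up to PRDX6.

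Much of the variation among the members went with P number. P14 was the highest library of both groups for 22 of the 46 tested members (47.8%), against 16.0% of all genes tested, while P15 was for 2 and P19 for 5 members. TXN, SOD1, MGST1, MGST3 and PRDX1 were among the 22. Those 22 members had a median exonic length of 2.17 kb, and the 23 others with a length 5.42 kb. Over all genes the medians were 2.18 kb for 2779 genes highest in P14 of both groups and 4.61 kb for 14556 others. P14 also had the highest mitochondrial ribosomal RNA share of each group. The part of length or RNA quality in this was not tested.

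**Figure D4:**
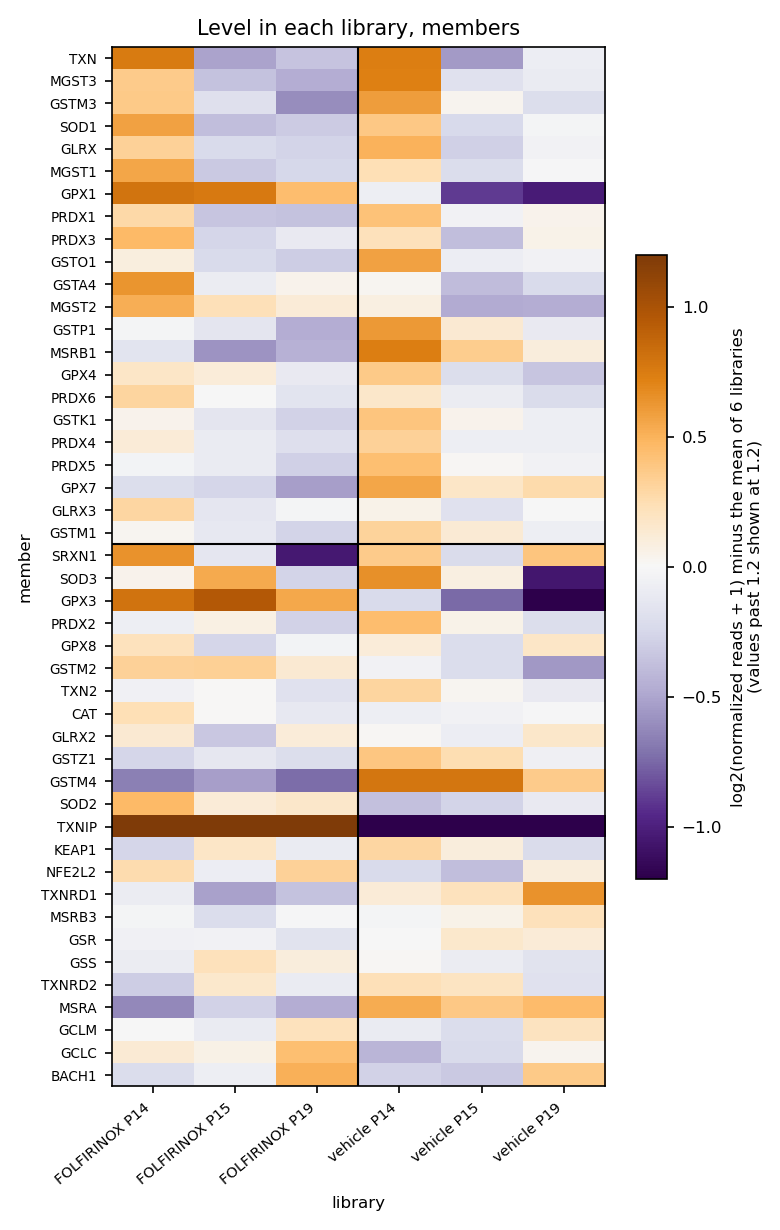
Level of each tested member in each library, as log2(normalized reads + 1) minus its mean over the 6 libraries, with FOLFIRINOX left of vehicle. The 22 members above the black line are highest in P14 of both groups, and TXNIP below it is high in all 3 FOLFIRINOX libraries.

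In 5 of 7 lists of genes around these enzymes more were called lower than higher. Of 16 tested genes of NADPH supply 10 fell and none was called higher (62.5% lower, against 12.2% of all genes; median difference −0.79, against 0.02). IDH2, the mitochondrial isocitrate dehydrogenase, averaged 513 ± 51.7 normalized reads in FOLFIRINOX and 2465 ± 260.0 in vehicle (−2.26 ± 0.17, limma adjusted p = 4.8e-06). PGD of the pentose phosphate pathway averaged 10394 ± 812 in FOLFIRINOX and 26375 ± 311 in vehicle (−1.35 ± 0.14, adjusted p = 6.3e-05). Of 26 other thioredoxin-fold and related genes 9 fell (34.6%, against 12.2% of all genes) and 1 rose (3.85%, against 11.4%), with a list median of −0.31. ERO1A (among those that fell), ERO1B, MSRB2 and CCS are in that list without the fold. NXN (nucleoredoxin), which rose (0.99), was low, averaging 116 normalized reads in FOLFIRINOX and 59.5 in vehicle. The protein disulfide isomerases PDIA4 and PDIA6 had log2 differences of −1.78 and −1.05. Of 21 other glutathione genes 6 fell (28.6%) and 1 rose (4.76%), with a median of −0.15. ANPEP, an aminopeptidase that acts on glutathione breakdown products (−1.63), and GSTM5 (−1.32) were among those that fell, and GSTO2 rose (0.64). Without both P14 libraries 3 of the 21 were called.

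Among 30 other NRF2 pathway genes 11 fell and 3 rose (median −0.45), beside 12.2% lower and 11.4% higher over all genes. With the replicate block 18 fell and 5 rose, beside 21.8% lower and 22.3% higher over all genes. AKR1B10, an aldo-keto reductase, averaged 455 ± 90.8 normalized reads in FOLFIRINOX and 45.3 ± 25.3 in vehicle (3.44 ± 0.38, limma adjusted p = 9.4e-05). MAFK, a small MAF partner of NRF2, also rose (0.79), while PIR (pirin) and CBR3 (a carbonyl reductase) fell, with differences of −2.18 and −1.96. Of 11 genes of selenoprotein synthesis 5 fell (45.5%, against 12.2% of all genes) and none was called higher (median −0.10). LRP8, a receptor for the selenium carrier selenoprotein P, averaged 584 ± 129 normalized reads in FOLFIRINOX and 2943 ± 475 in vehicle (−2.34 ± 0.21, limma adjusted p = 1.8e-05), and SCLY, selenocysteine lyase, differed by −0.98. The number called was 3 without both P14 libraries, vehicle P15 or vehicle P14, and 2 without FOLFIRINOX P19. Of 12 other selenoproteins DIO2, a deiodinase, rose (0.91) and SELENOS, of the reticulum, fell (−0.52), 8.33% each way, with a median of 0.01. Under the block 3 of them were higher and 4 lower, beside 22.3% and 21.8% of all genes. Without both P14 libraries, vehicle P15, FOLFIRINOX P19 or FOLFIRINOX P15 none of the 12 was called by limma, and 1 was without either P14 library alone, without a filter, without the variance trend or with common-total scaling. Of 8 tested oxidant producers XDH (xanthine dehydrogenase) rose (1.22) and NOX4 (an NADPH oxidase) fell (−1.21), with a median of 0.22. These calls were 12.5% each way, near the shares of all genes. The lists were written from general knowledge, with earlier results of these data known, and are described by counts alone.

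**Figure D5:**
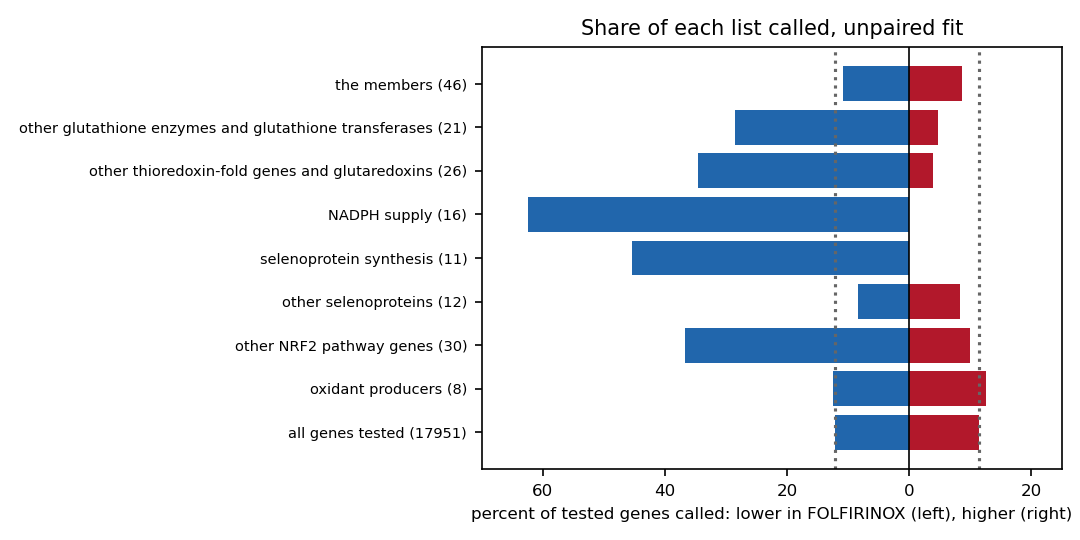
Percent of tested genes called lower (left of 0) and higher (right of 0) in FOLFIRINOX for the members and each surrounding list, with the number tested in brackets and dotted lines at the shares of all genes (12.2% and 11.4%). NADPH supply reaches 62.5% lower, while the members stay near the dotted lines.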

How the data were processed

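RNA of 6 libraries was measured as reads per gene. Kits from NEB (mRNA enrichment) and KAPA (library) were used, per the labels' protocols. FastQC 0.12.1, STAR 2.7.11b, featureCounts 2.0.6, DESeq2 and GRCh38 are named in the submitters' processing notes. The sources used here name no annotation, strand setting or DESeq2 design. The authors deposited counts divided by a size factor per library (a normalized signal), log2 fold changes with errors, a score (fold change over error), p-values and adjusted p-values. All values were whole multiples, within 0.001, of 1 read (100% of values), so reads were recovered. Of values below 50 reads, 72.3% to 74.8% were even, so mates of a pair appear to have been counted singly, and counting error is larger than the reads alone give. Of the reads, 0.201% to 0.276% belonged to genes without a symbol.

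The main test was limma 3.58.1 (R 4.3.3) with a variance trend on log2(value + 1) of genes with 10 or more in at least 3 libraries, which understates folds of low genes. Columns give a treatment and a P number that is in no label, so they were assigned to groups only. P numbers were read as pairs: deviations from group means correlated at 0.257, 0.282 and 0.288 within a number (0.1 was needed) and at −0.26 to −0.03 between numbers. Centring on group means makes the values between numbers negative on average once those within are positive, so they add no separate support. No label says that cultures were separate, so p-values measure the spread between libraries. An exact permutation test of 3 against 3 cannot go below p = 0.1. Replicates differed by more than sampling noise (chi-square per degree of freedom 75.3 to 236). The median SE was 0.19 over the members and 0.23 over all genes. The members and lists, and the rule to give values in every library for called members, core enzymes and regulators and up to 2 genes per direction of other lists, were chosen with earlier results of these data known. Values in every library of SRXN1, SOD3, PRDX6, MGST1 and GGT1 were added after they were seen. Alternatives run were other pseudocounts (0.5, 8), other filters (none, 50), other scaling (TMM, common total), no trend, edgeR 4.0.16 quasi-likelihood and DESeq2 1.42.0 on recovered reads, the replicate block, and leaving out libraries. With edgeR 1987 genes rose and 2183 fell, and with DESeq2 2208 rose and 2300 fell. The DESeq2 run, with group alone, returned the deposited log2 differences and adjusted p of the members. It therefore repeats the authors' fit, unpaired, and is not a separate check on it. The limma step was also run on simulated data. Those libraries were drawn independently and few genes were changed, so the run does not vouch for the unpaired fit here. GENCODE 29 gave lengths and positions, and RefSeq promoters were scanned for motif letters.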

Additional observations from a re-analysis of the deposited data

How the results depend on the processing

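The 4 rises were TXNIP, GPX1, GPX3 and SOD2, and TXNIP, GPX1, GPX3, GSTM4 and MSRA kept their calls and signs under every alternative run. With P number as a replicate block the members called were 9 higher and 10 lower, and all genes 3995 higher and 3918 lower, beside 23 other NRF2 pathway genes and 7 other selenoproteins called in either direction. No call of the unpaired fit was lost under the block. Without both P14 libraries 3 members were lower, 1162 genes higher and 1368 lower, and 3 other glutathione genes, 3 selenoprotein synthesis genes and 0 other selenoproteins were called. Without the variance trend 3 members were lower, and 1 of the other selenoproteins was called, as with no filter and with common-total scaling. Leaving out 1 library gave 3 to 5 members higher and 2 to 5 lower, 1318 to 2218 genes higher and 1544 to 2204 lower, 2 to 6 selenoprotein synthesis genes and 0 to 2 other selenoproteins. The other lists gave 5 to 6 (glutathione), 7 to 9 (thioredoxin fold and related), 8 to 10 (NADPH supply), 10 to 15 (NRF2 pathway) and 2 to 2 (oxidant producers) calls. The cause of these shifts was not tested. In all, 23 values of 4 members lost the call and 15 values of 10 members gained one. GPX2 and GGT1 could not be tested at their counts, and the interval of SRXN1 is the widest of the members.

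The sign turned for 18 members, none of them called in the fit reported or in the alternative where the sign turned, in 39 of the values recomputed, with log2 differences as follows: without vehicle P19 (GPX4 −0.024, GPX8 0.024, SOD3 −0.26, GLRX2 0.0011), common-total scaling (GPX8 0.061, SOD1 0.032, TXN 0.041, GLRX2 0.045, MGST1 0.1), without FOLFIRINOX P15 (GPX8 0.066, SOD1 0.092, SOD3 −0.0076, TXN 0.17, GLRX2 0.086, MGST1 0.15), without FOLFIRINOX P14 (PRDX3 −0.15, PRDX6 −0.032, CAT −0.019, GLRX3 −0.042), without vehicle P15 (PRDX3 −0.10, GCLM −0.013), without both P14 libraries (PRDX3 −0.022, CAT −0.033, TXNRD2 0.018, KEAP1 0.10), without vehicle P14 (PRDX4 0.010, SOD1 0.092, TXN 0.28, GLRX 0.11, MGST1 0.10, KEAP1 0.0026), without FOLFIRINOX P19 (SRXN1 0.071, SOD1 0.061, TXN 0.088, GCLM −0.015, MGST1 0.11, BACH1 −0.061), edgeR on recovered reads (MGST1 0.037), DESeq2 on recovered reads (MGST1 0.037).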
